A study of Mus musculus with 22 samples.

Results

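The Hedgehog pathway was followed through 8 of its genes, namely the ligand Shh, the receptor Ptch1, the signal transducer Smo, the ligand-binding inhibitor Hhip, the transcription factors Gli1, Gli2 and Gli3, and their cytoplasmic partner Sufu. Their rows were read from 2 tables of read counts per gene, one of mouse striatum with 55341 gene rows and one of mouse white adipose tissue (WAT) with 47643. All 8 genes had a row in both tables. The set was chosen by the Gli2 counts of these same libraries, which were higher after thyroid hormone in both tissues, so the values of Gli2 are given as a description and were not tested. The other 7 genes, and 37 further genes of the pathway arranged by role, were tested within a fit across all genes.

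Hedgehog ligands are secreted proteins. Without a ligand, the receptor Patched holds the membrane protein Smoothened inactive. Ligand binding releases it, and Smoothened, acting at the primary cilium, turns the Gli proteins into transcriptional activators. Gli2 is the main activator, Gli3 acts mostly as a repressor, and Gli1 is an activator that is itself switched on by the pathway, as are Ptch1 and Hhip. In the adult forebrain Shh is made by neurons, and in adipose tissue Hedgehog signalling is known for holding back the formation of white adipocytes. Thyroid hormone acts through nuclear receptors that bind DNA and change transcription.

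The animals were wild-type C57BL/6J mice, labelled male, 8 weeks old. The PTU groups were labelled hypothyroid after 2 weeks of propylthiouracil (PTU), a drug that blocks thyroid hormone synthesis, and the TH groups were collected a given time after thyroid hormone, given per the study's overview as a single intraperitoneal injection of T3 and T4. Striatum had 2 PTU libraries (replicates 3 and 6), 4 of TH 12 h and 4 of TH 24 h. WAT had 4 PTU, 4 TH 6 h and 4 TH 24 h libraries. The labels do not say whether TH animals also received PTU. For WAT the overview lists PTU in food for 2 weeks beside the T3 and T4 injection. It lists no hypothyroidism procedure for striatum, so the state of the striatum controls rests on their labels. Nothing says that replicates came from separate animals, so p-values measure the spread between these libraries.

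Striatum libraries held 8044701 to 10147160 counts and WAT libraries 17285956 to 26946573. Hr, a known thyroid hormone target, was between 38.8 and 57.4 normalised counts in striatum PTU and between 245 and 381 after hormone, and in WAT between 91.0 and 167 in PTU and between 1228 and 2738 after hormone. Xist, the transcript of the inactive X chromosome, was between 22070 and 33693 normalised counts in 6 striatum libraries labelled male (PTU replicate 6, TH 12 h replicate 1 and all 4 of TH 24 h) and at most 17.8 in the other 16 libraries. Ddx3y, a gene of the Y chromosome, was at most at 1.19 normalised counts in those 6 libraries and at 186 to 254 in the other striatum libraries. Both transcripts are in conflict with the label male in those 6 libraries. Striatum results are therefore also given within the high-Xist and low-Xist libraries. Striatum TH 24 h replicate 2 stood apart, with 197 CPM summed over 7 striatal projection neuron markers against 1588 to 4320 in the other striatum libraries. Results that change without it are given both ways. Leaving out single striatum libraries also changed the number of all genes called, with the range given at the end. TH 24 h replicate 2 is in neither group of the 12 h comparison and acts there only through the fit shared by all striatum groups. Genes that pass at 12 h without it are therefore no result about the members alone. In bulk tissue, fewer cells of a type and less RNA per cell cannot be told apart.

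Gli2 (ENSMUSG00000048402.14) lies at chr1:118834132-119053619 on the minus strand of GRCm38. The 250 bases before its RefSeq start (chr1:119053620-119053869, minus strand, GRCm38.p6) are shown because Gli2 is the member with the higher counts in both tissues. The capitals mark a GC box (GGGCGG, searched on both strands), which 32.7% of 32851 promoter windows of the same length held.

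Gli2 promoter: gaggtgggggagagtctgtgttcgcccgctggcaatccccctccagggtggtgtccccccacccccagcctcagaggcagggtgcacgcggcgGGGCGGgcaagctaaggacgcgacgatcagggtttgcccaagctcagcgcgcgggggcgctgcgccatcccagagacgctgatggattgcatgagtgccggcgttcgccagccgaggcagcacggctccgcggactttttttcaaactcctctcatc

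The thyroid hormone receptor half-site AGGTCA, searched on both strands, had no match in this window and was in 14% of all windows. The same window held no DR4 element, a direct repeat that contains the half-site, and no Gli site GACCACCCA, found in 0.0152% and 0.225% of all windows. The windows of the 5 other members with a RefSeq entry (Gli3, Ptch1, Smo, Hhip and Sufu) held none of these 3 motifs either. These are letter matches in a short window and not binding measurements. Gli1 and Shh had no entry.

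In striatum, Gli2 was at 36.7 and 54.4 normalised counts in the PTU libraries. At 12 h it was at 85.0, 105, 131 and 96.5, and at 24 h at 107, 113, 123 and 109. Every library after hormone was above both PTU libraries, and the 24 h libraries lay close together. The log2 change was 1.19 ± 0.21 (SE) at 12 h and 1.30 ± 0.21 at 24 h, that is 2.28-fold and 2.47-fold. Among low-Xist libraries, the single PTU value of 36.7 stood against 96.5 to 131 at 12 h. Among high-Xist libraries, the PTU value of 54.4 stood against 85.0 at 12 h and 107 to 123 at 24 h. Leaving out 1 PTU library moved the 12 h change to between 0.93 and 1.50 and the 24 h change to between 1.04 and 1.62.

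In WAT, Gli2 was at 36.5, 27.5, 34.3 and 20.9 normalised counts in the PTU libraries. It was at 58.2, 82.0, 66.4 and 89.5 at 6 h and at 154, 43.6, 55.2 and 121 at 24 h. Both hormone groups lay above all PTU libraries, and the 24 h group was spread the most, with replicates 1 and 4 above every 6 h library and replicates 2 and 3 below all of them. Its log2 change was 1.30 ± 0.37 at 6 h and 1.63 ± 0.37 at 24 h, or 2.47-fold and 3.11-fold. The change from 6 h to 24 h was 0.33 ± 0.35 and became -0.02 without TH 24 h replicate 1 and 0.55 without TH 24 h replicate 2.

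**Figure D1:**
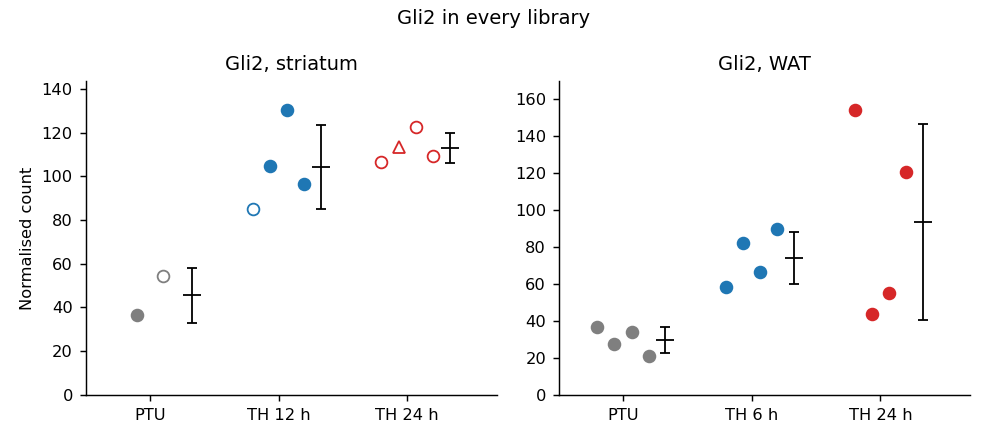
Gli2 in normalised counts (y axis, from 0) for every library of the 3 groups of striatum (left) and WAT (right), with mean and SD as bars. Open symbols are high-Xist striatum libraries and the triangle is striatum TH 24 h replicate 2. All 16 hormone libraries lie above the PTU libraries of their tissue, and the WAT 24 h libraries run from 43.6 to 154.

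Per exon length (RPKM over the exon bases of GENCODE M21), the order of the members differed between the groups. In striatum PTU the mean was 3.95 ± 1.21 RPKM (SD, n = 2) for Hhip, 3.82 ± 0.43 for Ptch1, 2.79 ± 0.36 for Sufu and 2.76 ± 0.22 for Gli3. Below these came Smo at 0.819 ± 0.074, Gli2 at 0.705 ± 0.194, Shh at 0.454 ± 0.089 and Gli1 at 0.0749 ± 0.0429. Hhip and Ptch1 overlapped there, as did Sufu and Gli3, and Smo and Gli2. At 24 h Gli2, at 1.75 ± 0.11 (n = 4), lay above all libraries of Smo, at 0.802 ± 0.195, and so did Shh, at 1.21 ± 0.07. Ptch1 led that group with 3.97 ± 0.91, before Hhip with 2.74 ± 0.93, Sufu with 2.64 ± 0.27 and Gli3 with libraries from 1.44 to 2.52, and each of these overlapped the next.

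In WAT PTU, Smo led with 4.59 ± 0.93 RPKM (n = 4), followed by Sufu with 2.65 ± 0.54 and Ptch1 with 1.22 ± 0.24. The 3 Gli genes lay close together, with Gli1 at 0.249 ± 0.081, Gli3 at 0.215 ± 0.065 and Gli2 at 0.202 ± 0.048, and their libraries overlapped. At 24 h Gli2 was at 0.633 ± 0.358, and its lowest library, at 0.296, was above the highest of Gli1 and Gli3. Hhip and Shh were at or near the limit of detection in every WAT group. Levels are not compared between the tissues, because the 2 tables may have been counted in different ways.

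**Figure D2:**
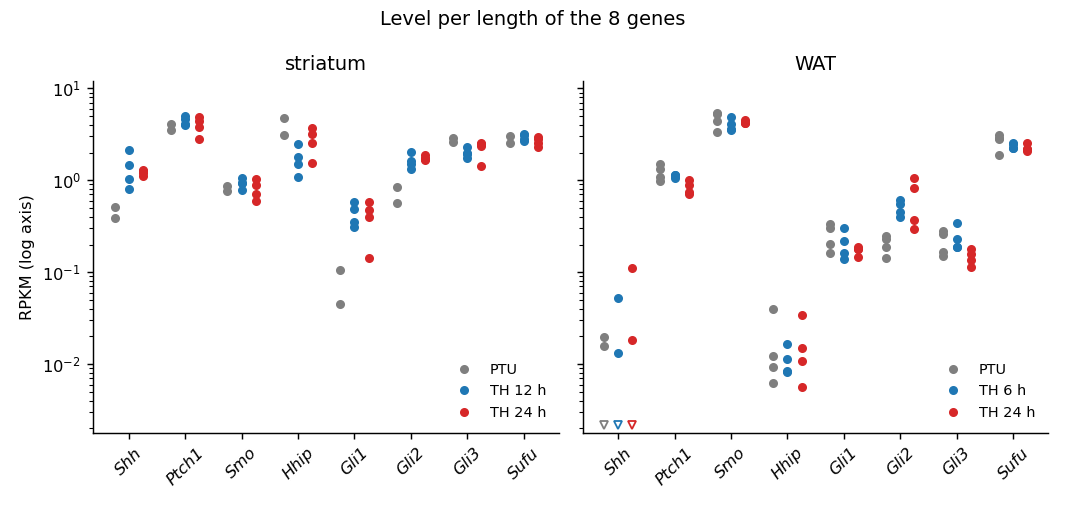
Level per exon length (RPKM, log axis) of the 8 genes in every library of striatum (left) and WAT (right), 1 point per library and 1 colour per group. Open triangles at the bottom mark WAT groups with libraries in which Shh had 0 counts. Gli2 is among the lower genes in the PTU groups and above Gli1 and Gli3 in the WAT 24 h libraries.

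In striatum at 12 h, 4 of the 7 members tested did not overlap between the groups (Shh and Gli1 above PTU, Hhip and Gli3 below), against 36.4% of all 15827 genes tested. At 24 h it was 3 of 7 (Shh and Gli1 above, Gli3 below), against 18.2% of all genes. With 2 PTU libraries, edgeR's quasi-likelihood test called 0 of the 7 at an adjusted p under 0.05 at either time, where the test called 0.96% of all genes at 12 h and 0.348% at 24 h. At an unadjusted p under 0.05 there were 4 of 7 at 12 h and 2 of 7 at 24 h, beside 20.2% and 9.63% of all genes. DESeq2 called 1 at 12 h, Hhip, and 0 at 24 h. It called more of all genes than edgeR at both times, with the numbers given at the end. At 12 h DESeq2 gave no adjusted p for Shh, Smo and Gli1 and so could not call them. Gli1 is among these 7 only through its hormone groups, so the counts are descriptions. Both comparisons use the same PTU libraries.

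Shh (chr5:28456815-28467256, minus strand) encodes the ligand. It was at 10.5 and 13.8 normalised counts in striatum PTU, at 56.6, 39.1, 21.8 and 27.3 at 12 h and at 34.2, 33.6, 29.8 and 32.1 at 24 h. Both hormone groups lay above PTU. Its log2 change was 1.56 ± 0.39 at 12 h (adjusted p = 0.0783, edgeR) and 1.40 ± 0.40 at 24 h (adjusted p = 0.247), neither past the threshold. As a ratio of summed counts, 154 against 24 gave 2.94-fold at 12 h, with a 95% exact interval of 1.91 to 4.74 for counting error alone. The 12 h change passed without TH 24 h replicate 2 (adjusted p = 0.0402). Within low-Xist libraries the 12 h values of 21.8 to 39.1 stood against 10.5, and within high-Xist libraries 56.6 at 12 h and 29.8 to 34.2 at 24 h stood against 13.8. In WAT, Shh had 2, 4 and 8 counts in the PTU, 6 h and 24 h groups as a whole and was not tested.

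Shh exons overlap those of 2 genes on the other strand, Gm26894 by 361 bases and 9530036O11Rik by 446. Whether the counting used strand is not given in the sources used here. In striatum Gm26894 was at 5.24 and 8.90 normalised counts in PTU, 7.83 to 9.97 at 12 h and 6.02 to 17.9 at 24 h. 9530036O11Rik was at 4.19 and 3.96 in PTU, and its 12 h libraries, at 7.55, 12.7, 8.16 and 6.37, all lay above these. At 24 h it was at 5.87, 8.97, 2.38 and 8.03, on both sides of PTU. The part of these genes in the Shh change was not tested.

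Hhip (chr8:79965851-80058006, minus strand) encodes a membrane protein that captures Hedgehog ligands. In striatum it was at 264 and 411 normalised counts in PTU, at 212, 129, 92.5 and 155 at 12 h, and at 316, 130, 270 and 220 at 24 h. The 12 h libraries lay below both PTU libraries, and the 24 h libraries overlapped them. The change of Hhip was -1.20 ± 0.34 on the log2 scale at 12 h (adjusted p = 0.0991, edgeR) and -0.53 ± 0.34 at 24 h (adjusted p = 0.665). At 12 h, DESeq2 gave an adjusted p of 0.0219 and the fit without TH 24 h replicate 2 one of 0.0260. Within low-Xist libraries 92.5 to 155 at 12 h stood against 264, and within high-Xist libraries 212 at 12 h and 130 to 316 at 24 h stood against 411, so that the 24 h libraries, all high-Xist, were below the PTU library of their own type. In WAT it had 9 to 13 counts per group of 4 libraries and was not tested. Hhip shares 175 exon bases with Gm27820 on the other strand.

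Gli1 (chr10:127329882-127341974, minus strand), the target and activator, had 2 and 5 raw counts in the striatum PTU libraries, or 2.10 and 4.95 normalised counts. It was at 22.7, 14.7, 27.2 and 16.4 at 12 h and at 18.6, 6.73, 27.4 and 22.1 at 24 h. All hormone libraries were above both PTU libraries, and replicate 2 of TH 24 h was the lowest of them. Gli1 passed the minimum mean count of 10 only through these hormone groups.

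The log2 change of Gli1 in striatum was 2.47 ± 0.62 at 12 h (adjusted p = 0.0771, edgeR) and 2.35 ± 0.63 at 24 h (adjusted p = 0.201), not past the threshold. The ratio of summed counts was 5.70 at 12 h (87 against 7 counts, 95% exact interval 2.65 to 14.6, counting error alone). With no count filter the adjusted p was 0.0488 at 12 h and 0.136 at 24 h, and without TH 24 h replicate 2, with the filter, the changes were 2.47 (adjusted p = 0.0155) and 2.60 (adjusted p = 0.0361). Since the hormone groups carried Gli1 past the filter, the p-values of the filtered fits are given as a description. Within low-Xist libraries 14.7 to 27.2 at 12 h stood against 2.10, and within high-Xist libraries 22.7 at 12 h and 6.73 to 27.4 at 24 h stood against 4.95. Gli1 shares 62 exon bases with Arhgap9 and 265 with Gm47200, both on the other strand, and in striatum these were at 5.46 to 8.50 and at most 1.05 normalised counts.

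Gli3 (chr13:15463235-15730026, plus strand), mostly a repressor, was at 235 and 263 normalised counts in striatum PTU. It was at 210, 159, 175 and 180 at 12 h and at 228, 130, 224 and 213 at 24 h. Both hormone groups lay below the PTU libraries. For Gli3 the log2 change was -0.46 ± 0.20 at 12 h (adjusted p = 0.226, edgeR) and -0.32 ± 0.20 at 24 h (adjusted p = 0.654). The 12 h change passed the threshold without TH 24 h replicate 2 (adjusted p = 0.0405). Within low-Xist libraries 159 to 180 stood against 235 at 12 h, and within high-Xist libraries 210 at 12 h and 130 to 228 at 24 h stood against 263. Gli3 shares 188 exon bases with Gm6556 on the other strand.

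Ptch1, Smo and Sufu overlapped between striatum PTU and both hormone groups. Ptch1 (chr13:63508328-63573598, minus strand) was at 469 and 551 normalised counts in PTU, 533 to 664 at 12 h and 371 to 649 at 24 h (log2 change 0.21 ± 0.19 and 0.05 ± 0.19). Smo (chr6:29735503-29761365, plus strand) was between 31.4 and 56.2 in all 10 libraries, and its log2 changes were 0.18 ± 0.23 and -0.03 ± 0.24. Sufu (chr19:46396896-46488804, plus strand), which holds Gli proteins in the cytoplasm, was between 168 and 228, with 0.07 ± 0.13 and -0.08 ± 0.13. Within low-Xist libraries, Ptch1 at 12 h (533 to 618) was above the PTU value of 469, Sufu (196 to 228) above 183, and Smo (41.0 to 56.2) on both sides of 46.1. Within high-Xist libraries at 12 h, Ptch1 (664) was above 551, Smo (49.1) above 40.6 and Sufu (205) below 221. At 24 h the high-Xist libraries of Ptch1 (371 to 649) and Smo (31.4 to 54.7) lay on both sides of these PTU values and those of Sufu (168 to 212) below. The smallest of these 6 adjusted p-values was 0.582 (edgeR, Ptch1 at 12 h). From 12 h to 24 h the groups of all 7 tested members overlapped, against 8.3% of all genes that did not. The edgeR test called 0 of 7 (background 0%). At an unadjusted p under 0.05 there was 1, Hhip (0.67 ± 0.30, adjusted p = 0.327), beside 14.6% of all genes. DESeq2 called 0 and gave no adjusted p for Shh and Gli1. All TH 24 h libraries were high-Xist and at TH 12 h only replicate 1 was, so time and Xist type largely cannot be told apart here.

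**Figure D3:**
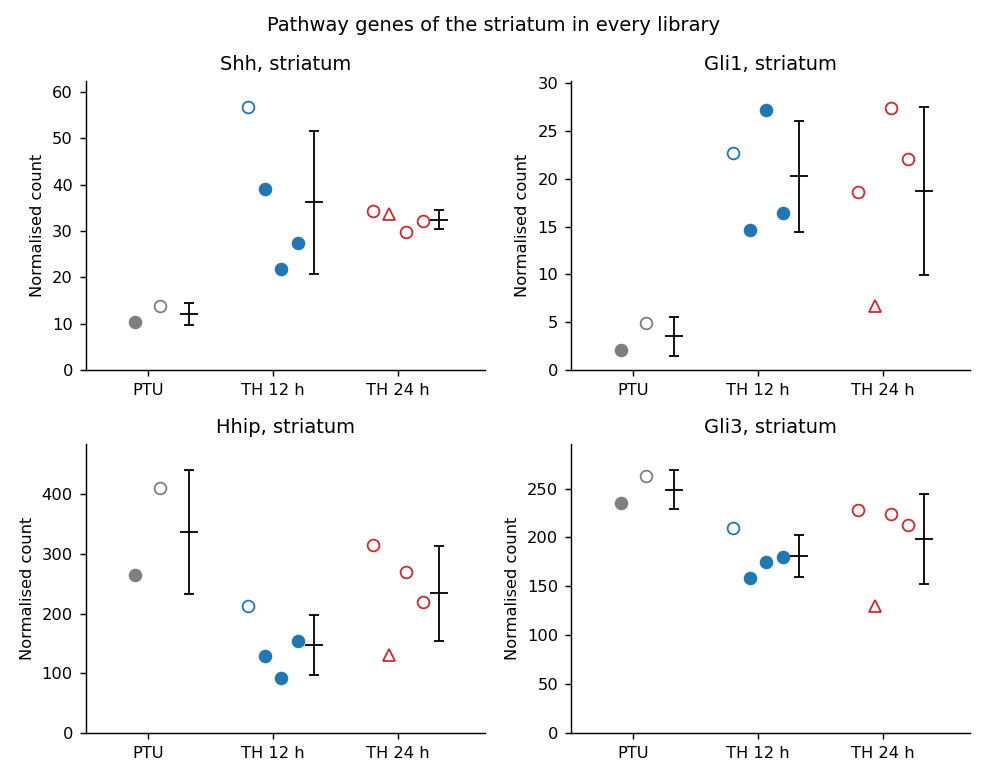
Shh, Gli1, Hhip and Gli3 in normalised counts (y axes, from 0) for every striatum library, with mean and SD as bars. Open symbols are high-Xist libraries and the triangle is TH 24 h replicate 2. Shh and Gli1 lie above both PTU libraries at both times, Gli3 below them at both times, and Hhip below them at 12 h (92.5 to 212 against 264 and 411).

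Other cell markers moved with the striatum groups. The summed level of 5 cortical excitatory neuron markers was 401 to 729 CPM in PTU, 968 to 1552 at 12 h and 580 to 2384 at 24 h, and that of 7 striatal projection neuron markers was 2948 to 4320, 1588 to 2692 and 197 to 4234. No marker of either list was at 0 in a group, and their part in the changes of Shh, Hhip, Gli1, Gli2 and Gli3 was not tested. No one of these 12 markers was called by edgeR at either time. The 6 astrocyte markers summed to 1198 to 1253 CPM in PTU and 1073 to 1271 after hormone. Choroid plexus markers (4) summed to 19.0 and 30.4 CPM in PTU, 5.78 to 21.97 at 12 h and 4.05 to 14.6 at 24 h, the 24 h libraries all below PTU. Fibroblast and mural markers (5) were at 156 and 179, then 128 to 156 and 123 to 153, and oligodendrocyte markers (5) at 2679 and 3944, then 1929 to 2696 and 1577 to 3578. None of these was at 0 in a group or called at either time, and their part in the changes was not tested either.

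In WAT, 5 members other than Gli2 could be tested. The groups of all 5 overlapped between PTU and 6 h, and again between PTU and 24 h, against 13.9% and 19.3% of all 17928 genes tested that did not overlap. At 6 h edgeR called 0 of 5 (background 7.23%). At an unadjusted p under 0.05 there were 0, beside 25.4% of all genes, and DESeq2 called 0. At 24 h edgeR called 1 of 5, Ptch1 (background 17.1%).

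Ptch1 was at 297, 461, 404 and 327 normalised counts in WAT PTU, at 340, 344, 321 and 351 at 6 h and at 305, 214, 225 and 272 at 24 h. The 24 h replicates 2, 3 and 4 were below every other WAT library and replicate 1 was within the PTU range. The log2 change was -0.13 ± 0.15 at 6 h (adjusted p = 0.601, edgeR) and -0.55 ± 0.15 at 24 h (adjusted p = 0.0240). The 24 h call was lost in the fit of PTU and 24 h alone (adjusted p = 0.0685) and without PTU replicate 2 (0.0773), PTU replicate 3 (0.0544), TH 24 h replicate 2 (0.0720) or TH 24 h replicate 3 (0.0773), with log2 changes of -0.65 to -0.43 over all alternatives.

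**Figure D4:**
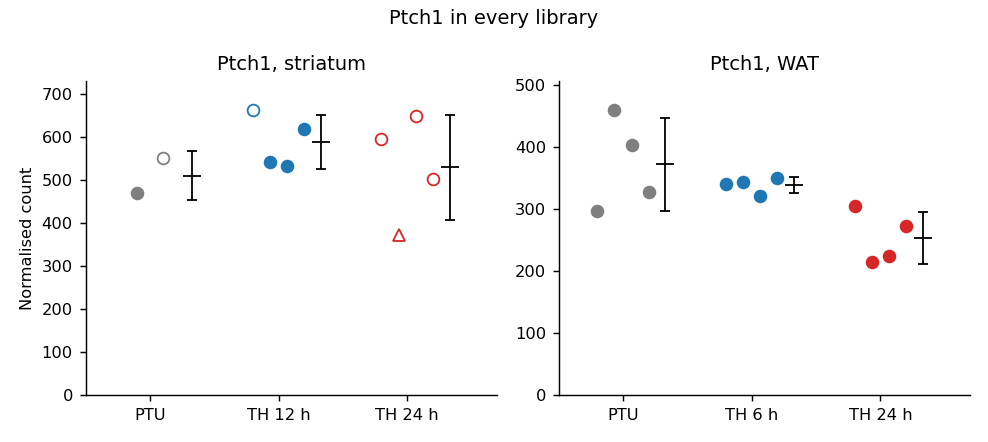
Ptch1 in normalised counts (y axis, from 0) for every library of the 3 groups of striatum (left) and WAT (right), with mean and SD as bars. Open symbols are high-Xist striatum libraries and the triangle is striatum TH 24 h replicate 2. In WAT, 3 of the 4 libraries at 24 h (214 to 272) lie below all PTU and 6 h libraries, and in striatum the groups overlap.

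Gli1 in WAT was at 35.5, 32.3, 21.7 and 17.2 normalised counts in PTU, at 32.4, 23.3, 14.99 and 17.2 at 6 h and at 19.3, 15.5, 19.1 and 19.9 at 24 h. The groups overlapped, in the tissue where every Gli2 value was higher after hormone. The log2 change was -0.29 ± 0.29 at 6 h (adjusted p = 0.567, edgeR) and -0.53 ± 0.29 at 24 h (adjusted p = 0.235). Arhgap9, on the other strand of Gli1, was at 166 to 387 normalised counts in WAT, above Gli1.

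Gli3 in WAT was at 57.6, 31.1, 54.1 and 34.4 normalised counts in PTU, 39.1, 70.0, 38.6 and 46.8 at 6 h and 32.8, 23.3, 27.6 and 36.5 at 24 h. The 24 h libraries were below all 6 h libraries but overlapped PTU. The log2 change was 0.13 ± 0.26 at 6 h, -0.57 ± 0.27 at 24 h (adjusted p = 0.171, edgeR) and -0.70 ± 0.27 from 6 h to 24 h (adjusted p = 0.133). Smo was between 405 and 646 and Sufu between 307 and 507 in all 12 libraries, with log2 changes against PTU of -0.18 ± 0.15 and -0.09 ± 0.15 for Smo and -0.17 ± 0.14 and -0.24 ± 0.14 for Sufu (smallest adjusted p = 0.257, edgeR). From 6 h to 24 h, Ptch1 and Gli3 did not overlap, 2 of 5 against 21.8% of all genes. The edgeR test called 0 of 5 (background 7.41%). At an unadjusted p under 0.05 there were 2, beside 24.1% of all genes, and DESeq2 called 0.

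**Figure D5:**
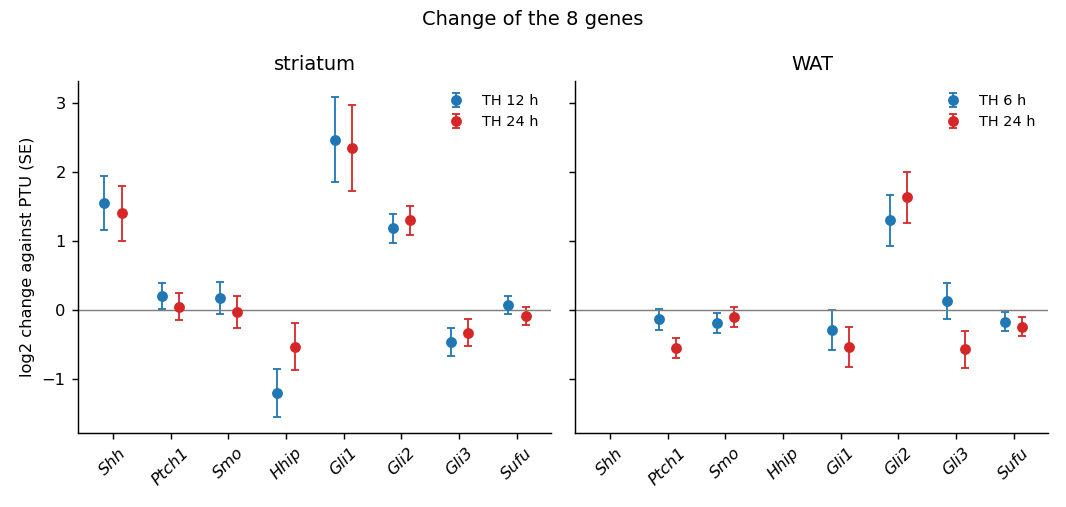
Log2 change against PTU (y axis) with its SE for the 8 genes, with striatum on the left (12 h and 24 h) and WAT on the right (6 h and 24 h). Shh and Hhip were not tested in WAT. Gli2 is the member with the same direction and more than 1 log2 unit in all 4 comparisons (1.19, 1.30, 1.30 and 1.63), and Gli1 is at 2.47 and 2.35 in striatum and at -0.29 and -0.53 in WAT.

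The 24 h change was set against the other tissue in 1 fit of all 22 libraries, over 12767 genes tested in both. All striatum TH 24 h libraries were high-Xist, of striatum PTU only replicate 6 was, and all WAT libraries were low-Xist. Tissue and Xist type therefore partly cannot be told apart in this comparison. Within high-Xist striatum libraries, with 1 PTU library, the Gli1 mean at 24 h was 1.92 log2 units above PTU. The Gli1 change was lower in WAT than in striatum by 2.84 ± 0.67 on the log2 scale (WAT minus striatum -2.84, adjusted p = 0.0165, edgeR), the 1 call among 5 members (background 4.92%). Gli1 entered this fit through its striatum hormone groups, since its PTU mean there was 3.52 normalised counts, below the minimum of 10, so the call is a description. With no count filter the difference was -2.89 (adjusted p = 0.0251). It was lost without striatum PTU replicate 3 (-2.37, adjusted p = 0.126) or PTU replicate 6 (-3.58, adjusted p = 0.0570). For Gli2 the difference was 0.37 ± 0.48, given without a test. The other differences were -0.54 ± 0.24 for Ptch1 (adjusted p = 0.199), -0.21 ± 0.35 for Gli3, -0.10 ± 0.20 for Sufu and -0.01 ± 0.27 for Smo.

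Of the 44 pathway genes without Gli2, 40 were tested in striatum, and 1 was called at 12 h and 1 at 24 h, or 2.5% at each time beside the 0.96% and 0.348% of all genes given above. The median log2 change of the 40 was 0.02 at 12 h and -0.02 at 24 h, against 0.01 and 0.02 for all genes. The called gene was Mycn at both times, a transcription factor that is a known Hedgehog target. Mycn was at 191 and 208 normalised counts in PTU, at 382, 446, 360 and 412 at 12 h and at 482, 453, 476 and 384 at 24 h, with no overlap. It rose by 1.01 ± 0.13 at 12 h (adjusted p = 0.0155, edgeR) and by 1.17 ± 0.13 at 24 h (adjusted p = 0.00809).

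The Mycn calls were lost without PTU replicate 3 (adjusted p = 0.255 and 0.366) or PTU replicate 6 (0.130 and 0.116). With a term for Xist the 24 h call was lost (adjusted p = 0.0543), and so it was in the fit of PTU and 24 h alone (0.130). Within high-Xist libraries Mycn was at 382 at 12 h and 384 to 482 at 24 h against 208, and within low-Xist libraries at 360 to 446 at 12 h against 191. Without TH 24 h replicate 2, edgeR called 6 list genes at 12 h and 2 at 24 h. Calls over all genes also changed when single libraries were left out, so these counts are no result about the list alone. From 12 h to 24 h edgeR called 0 of the 40, with 6 at an unadjusted p under 0.05, beside 14.6% of all genes. DESeq2 called 2, and its calls over all genes are given at the end. Time and Xist type largely cannot be told apart in this comparison.

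Of the other ligands and co-receptors in striatum, none was called by edgeR. Ihh had at most 2.72 and Dhh at most 6.02 normalised counts and were not tested. The co-receptors Cdon, Boc and Gas1, which bind ligand beside Patched, had log2 changes of 0.00 ± 0.18, 0.60 ± 0.75 and 0.20 ± 0.15 at 12 h and of -0.04 ± 0.18, 1.16 ± 0.75 and 0.38 ± 0.15 at 24 h. Boc was at 415 in TH 24 h replicate 2 and at 41.7 to 145 in the other striatum libraries, and its 24 h change was 0.17 without that library.

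In WAT at 6 h, edgeR called 0 of 37 tested list genes (beside 7.23% of all genes). At an unadjusted p under 0.05 there were 6, beside 25.4% of all genes. DESeq2 called 2, and its calls over all genes are given at the end. At 24 h edgeR called 10 of 37 (27%, beside 17.1%), 2 of them higher (background 7.45%) and 8 lower (background 9.62%). The median log2 change of the list was -0.24 against -0.00 for all genes. The count was 6 without PTU replicate 2, TH 24 h replicate 1 or TH 24 h replicate 2. Calls over all genes in those fits are not given here, so these counts are no result about the list alone. By role, 1 of 2 receptors (Ptch1, with Smo not called), 1 of 3 co-receptors, 2 of 13 cytoplasmic regulators, 4 of 9 genes of cilium transport and 2 of 5 targets were called.

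Among the targets, Ccnd1 and Ccnd2, cyclins that drive the G1 phase, went opposite ways in WAT. Ccnd1 was at 295, 305, 348 and 287 normalised counts in PTU and at 592, 378, 531 and 504 at 24 h (0.70 ± 0.15, adjusted p = 0.00719, edgeR). Ccnd2 was at 4065, 4740, 3645 and 3738 in PTU and at 1747, 1620, 1974 and 1833 at 24 h (-1.17 ± 0.12, adjusted p = 5.86e-05). In both genes the groups did not overlap, and both calls held under every alternative. Both overlap exons of genes on the other strand, 1100 bases in Ccnd1 and up to 372 in Ccnd2.

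The co-receptor Gas1 fell at 24 h (log2 change -0.74 ± 0.20, adjusted p = 0.0265, edgeR), from 206, 280, 211 and 264 normalised counts in PTU to 137, 104, 119 and 216. Its highest 24 h library, replicate 4, overlapped PTU, and the call was lost without PTU replicate 2 or 4 or TH 24 h replicate 1, 2 or 3 (adjusted p of 0.0575 to 0.0808) and in the fit of PTU and 24 h alone (0.0661). Cdon and Boc, at -0.45 ± 0.22 and -0.57 ± 0.23, were not called at 24 h. At 6 h the log2 change was -0.67 ± 0.20 for Gas1 (adjusted p = 0.0684, edgeR) and -0.79 ± 0.23 for Boc (adjusted p = 0.0610, edgeR), neither called. Both genes lay below all PTU libraries at 6 h, against 13.9% of all genes that did not overlap. Cdon overlapped there, at -0.25 ± 0.22. From 6 h to 24 h Gas1 changed by -0.07 ± 0.21 and Boc by 0.22 ± 0.23. Of the ligands, Dhh was at 18.0 to 45.6 in all 12 libraries (-0.24 ± 0.31 and -0.02 ± 0.31), and Ihh had at most 6.71 and was not tested. Gas1 shares 589 exon bases with Gm48488 and Dhh 1107 with Gm49442, both on the other strand. Dhh also shares 546 with Rhebl1 on its own strand.

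Gsk3b and Prkacb, kinases that phosphorylate Gli2 and Gli3, fell in WAT at 24 h. Gsk3b was at 818, 873, 883 and 857 normalised counts in PTU and at 624, 572, 631 and 564 at 24 h (-0.52 ± 0.08, adjusted p = 0.00151, edgeR), a call kept under every alternative. Prkacb went from between 1191 and 1367 normalised counts to between 943 and 1146 (-0.34 ± 0.09, adjusted p = 0.0223).

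Of the cilium genes, Tulp3, which carries receptors into the cilium, rose by 0.49 ± 0.15 at 24 h (adjusted p = 0.0382, edgeR). Kif3a, a motor toward the ciliary tip, fell (log2 change -0.43 ± 0.10, adjusted p = 0.0109). Dync2h1, the motor of the way back, also fell (-0.76 ± 0.23, adjusted p = 0.0378), as did Ift122, of the same transport (-0.50 ± 0.12, adjusted p = 0.0158). In all 4 genes the 24 h libraries did not overlap PTU. The Kif3a call held under every alternative and that of Ift122 under all but the fit with no count filter (adjusted p = 0.0509). The other calls depended on single libraries. That of Tulp3 was lost without PTU replicate 1 or 4, TH 6 h replicate 2 or TH 24 h replicate 1, 3 or 4 (adjusted p of 0.0503 to 0.109). That of Dync2h1 was lost without PTU replicate 2, 3 or 4, TH 6 h replicate 1 or 4 or TH 24 h replicate 1 or 2 (0.0508 to 0.107), and that of Prkacb without PTU replicate 2 or 3 or TH 24 h replicate 1, 2 or 4 (0.0507 to 0.0721). With no count filter these 3 calls were lost too (0.0674, 0.0559 and 0.0642), and those of Tulp3 and Dync2h1 in the fit of PTU and 24 h alone (0.0710 and 0.0752).

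From 6 h to 24 h in WAT, 6 of 37 list genes were called (16.2%, beside 7.41%). Tulp3 and Ccnd1 rose by 0.58 ± 0.15 and 0.55 ± 0.15, and Ift172, Ift122, Dync2h1 and Ccnd2 fell by 0.51, 0.47, 0.88 and 0.91 on the log2 scale. The count fell to 1, Ccnd2, without TH 6 h replicate 1, 2 or 3 or TH 24 h replicate 1, to 2 without TH 6 h replicate 4 or TH 24 h replicate 4, and to 3 without TH 24 h replicate 2 or 3. As the calls over all genes in these fits are not given here, the changes of the count are no result about the list alone.

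Between the tissues at 24 h, 6 of 36 list genes were called (16.7%, beside 4.92%). Gli1 is among these 6 only through its striatum hormone groups, so the count is a description. Besides Gli1, the WAT change was higher for Ccnd1 (1.04 ± 0.20) and Ttc21b (0.71 ± 0.20), a retrograde transport gene of the cilium, and lower for Gas1 (-1.07 ± 0.28), Gsk3b (-0.69 ± 0.12) and Ccnd2 (-0.91 ± 0.18). The count was 2 without striatum PTU replicate 3 and 2 without PTU replicate 6. The call of Ccnd1 was lost without PTU replicate 6 (adjusted p = 0.0503), that of Ccnd2 without PTU replicate 3 (0.0629), and those of Gas1 and Ttc21b without either. Gas1 was also lost without WAT PTU replicate 2 or WAT TH 24 h replicate 1 or 3 (0.0528 to 0.0598), and Ttc21b without striatum TH 24 h replicate 1, 3 or 4 or WAT TH 24 h replicate 1, 2 or 3 (0.0600 to 0.0741). In the fit of the 4 groups alone, Gas1 (0.0888) and Ttc21b (0.128) were not called, and Ttc21b was also lost with other size factors or filters (0.0502 to 0.320). All comparisons of a tissue with PTU share its PTU libraries. The calls over all genes without single libraries are not given here, so the changed counts are no result about the list alone. The limit from Xist type given above for the comparison of the tissues holds for these genes too.

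Cell markers also moved in WAT. The summed level of 5 adipocyte markers was 6449 to 9058 CPM in PTU, 6706 to 7973 at 6 h and 3342 to 4264 at 24 h, and 3 of the 5 were called lower at 24 h, against PTU and also against 6 h. That of 9 adipose stromal markers was 1327 to 1923, 871 to 1286 and 1036 to 1285, with 2 called lower at 6 h and 1 at 24 h. The 4 skeletal muscle markers summed to between 70.8 and 18263 CPM in PTU, 34.3 and 3507 at 6 h and 1344 and 9920 at 24 h. The 4 stratified epithelium markers summed to between 0.111 and 18.3 CPM in PTU, 0.824 and 131 at 6 h and 0.0898 and 0.361 at 24 h, with 1 called lower at 24 h against PTU and 3 against 6 h, and 1 of them was at 0 in the whole 24 h group. The 4 mesothelial markers summed to 1.95 to 2.95, 0.918 to 1.56 and 1.81 to 3.31 CPM, and the 1 that was tested was called higher from 6 h to 24 h. No adipocyte, stromal, mesothelial or muscle marker was at 0 in a group, and the part of all these markers in the WAT changes of the pathway genes was not tested.

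The 5 genes most like Gli2 over the 22 libraries were Spsb1, Dmtn, Foxred2, Trp53inp2 and Itpk1, with root mean square differences from Gli2 of 0.49, 0.53, 0.54, 0.54 and 0.54 in log2 CPM, each gene centred on the PTU libraries of its tissue. The median over 12766 genes was 1.20, and a gene with no change at all would be at 1.17. Spsb1 was at 85.9 and 86.1 normalised counts in striatum PTU and at 156 to 214 after hormone, and in WAT at 251 to 312 in PTU and at 370 to 585 after hormone, without overlap in either tissue. Foxred2 had a WAT 24 h library within the PTU range of 44.3 to 75.0, replicate 2 at 63.0, in which Gli2 was also at its lowest of the 24 h group, and Dmtn had its lowest 24 h value, 574, in the same replicate. The likeness was measured in the libraries that also chose Gli2 and carries no test.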

How the data were processed

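RNA was measured in 22 libraries of the 6 groups. Per the labels and the study's methods, total RNA libraries (Lexogen SENSE) were sequenced on a NextSeq 500, aligned to GRCm38 (mm10) with Bowtie2 2.2.6.2, filtered on alignment quality and counted per gene with htseqcount. The annotation release and strand setting are not given in the sources used here. The authors deposited raw read counts per gene, 1 table per tissue, without normalization.

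The members and gene lists were chosen with earlier results of these data known. Samples were grouped by their treatment labels. Rows whose gene symbol had turned into a date (14 in striatum, 15 in WAT, at most 0.201% and 0.0825% of counts) were left out. Each tissue was fitted over its 3 groups in edgeR 4.0.16 under R 4.3.3 (glmQLFit and glmQLFTest, two-sided, TMM factors, mean normalised count above 10). P-values were adjusted by Benjamini-Hochberg over all genes tested. Calls required an adjusted p below 0.05, whatever the fold. Normalised counts are counts divided by relative TMM library sizes. Log2 changes carry the SE from the fit. Non-overlap means that every library of one group was above, or below, every library of the other. RPKM used exon bases of GENCODE M21 gene models, and coordinates are from the same models.

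The 8 members were named throughout. Of the other list genes, those called in any comparison, the ligands, receptors and co-receptors were named. A gene of the pathway list is not reported here and is in no count of the list. The genes most like Gli2 were the 5 with the smallest root mean square difference in log2 CPM (prior count 2). The Boc values without 1 library, and the values without the library that stands apart, come from the alternatives that leave out each library. DESeq2 1.42.0, other size factors, filters, sample sets, a Xist term, a replicate block, copied rows and leaving out each library were tried, and the fit was tested on simulated data. Libraries of 1 group differed by 3.46 to 87.1 chi-square units per degree of freedom, so none was a copy of another.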

Additional observations from a re-analysis of the deposited data

Results flagged for a closer look

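In 100 groups of 4 libraries, chance alone flags about 1 in 20. In 7 of them 1 library was far from the other 3 relative to the range of the 4, in normalised counts. Shh in WAT TH 24 h replicate 2 was at 6.79, next to 1.11. In striatum TH 24 h replicate 2, the library that stands apart on striatal markers, Gli3 was at 130, next to 213, and Ccnd2 at 1059, next to 1197. Mycn in WAT PTU replicate 1 was at 12.5, next to 5.99. Kif3a in WAT TH 24 h replicate 3 was at 224, next to 215, a small gap in a group whose other end was at 213. In the WAT TH 6 h group, Dync2h1 was at 120 in replicate 2, next to 87.0, and Ift172 at 645 in replicate 3, next to 550.

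By the interaction test of edgeR given in the report, the 24 h change differed between the tissues for 6 of 36 pathway genes. This was 16.7%, beside 4.92% of all genes tested in both tissues. The WAT minus striatum difference (log2) was -2.84 for Gli1, -1.07 for Gas1, -0.69 for Gsk3b, 1.04 for Ccnd1, -0.91 for Ccnd2 and 0.71 for Ttc21b. Gli1 passed the count minimum of 10 in striatum only through the hormone groups, so its call and the count that includes it are descriptions. Among these genes, the Gsk3b call held under every alternative, while those of Gli1, Gas1, Ccnd1, Ccnd2 and Ttc21b were lost without 1 of the 2 striatum PTU libraries.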

How the results depend on the processing

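The count of pathway genes called without Gli2 was 1 at striatum 12 h, and became 3 with DESeq2 or no count filter, 4 in the 2 groups alone and 0 to 6 without 1 library. At striatum 24 h it was 1, and 0 in the 2 groups alone or with a Xist term, and 0 to 2 without 1 library. From 12 h to 24 h it was 0, and 2 with DESeq2. In WAT it was 0 at 6 h (2 with DESeq2, 1 in the 2 groups alone, 0 to 1 without 1 library), 10 at 24 h (6 with no filter, in the 2 groups alone or with the replicate block, 6 to 11 without 1 library) and 6 from 6 h to 24 h (2 with the block, 1 to 6 without 1 library). Between the tissues it was 6, and 2 to 6 without 1 library. The causes were not tested. Where the calls over all genes of a fit are not given, these counts are no result about the list alone.

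Of 718 alternative values for the other 7 members, 698 kept their side of the threshold, 12 gained a call and 8 lost one. The sign turned in 22, all with a main change of at most 0.15. Gli2 reversed once, from 6 h to 24 h in WAT, where its change ran from -0.024 (without TH 24 h replicate 1) to 0.55 (without TH 24 h replicate 2) when 1 library was left out. DESeq2 gave no adjusted p for 8 of 40 list genes at striatum 12 h, Gli1, Shh and Smo among them.

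Over all genes, 152 were called at striatum 12 h and 55 at 24 h, against 860 and 203 with DESeq2, 1442 and 0 in the 2 groups alone, 308 and 104 with no filter, 60 and 3 with a Xist term, and 0 to 1257 and 0 to 115 without 1 library. From 12 h to 24 h 0 were called, with 2309 at an unadjusted p under 0.05, 261 by DESeq2 and 41 with no filter. In WAT, 1296, 3060 and 1329 were called at 6 h, at 24 h and between them, against 2145 and 2169 with DESeq2 in the first and last, and 834, 2037 and 2444 in the 2 groups alone. Between the tissues 628 were called, and 264 in the 4 groups alone.

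Same-numbered libraries did not deviate together (r of -0.47 to 0.39 over 12 WAT pairs and -0.40 to 0.27 over 6 striatum pairs), so the replicate numbers were not taken as pairs. With the replicate block, Ptch1 in WAT at 24 h was at an adjusted p of 0.0660, and 778 genes were called from 6 h to 24 h. In striatum the block could be set only between 12 h and 24 h, where 0 pathway genes and 7 of all genes were called. With 2 PTU libraries in striatum and 2 to 30 counts of Gli1 a library, changes there are measured with little precision.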
